A study of Mus musculus with 5 samples.

Results

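The let-7 passenger strands are the 3' arms of the let-7 hairpins, marked with a star in the older miRNA names. They were taken as all miRNA probes of the array whose name starts with mmu-let-7 and ends in a star, which gave 7 of 569 miRNA probes: mmu-let-7a*, mmu-let-7b*, mmu-let-7c-1*, mmu-let-7d*, mmu-let-7f*, mmu-let-7g* and mmu-let-7i*. The group was chosen by measured values, with the Test over Cntrl ratios of these same arrays known, so the ratios below are a description with no test. A working list of 6 of these names left out mmu-let-7c-1*, so the main counts are given for both sets.

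The study compared the hippocampus of adult mice (8 weeks, strain 129/Sv) that are homozygous for a humanised BDNF knock-in allele, carrying either methionine (hBDNF Met/Met) or valine (hBDNF Val/Val) at the Val66Met site. BDNF is a secreted neurotrophin. Both genotypes are homozygous for the humanised allele, so the arrays hold no animal with the unmodified mouse allele. Each of 5 arrays held small RNA of 1 Met/Met mouse labelled with Cy3 and of 1 Val/Val mouse labelled with Cy5, and the labels call the arrays biological replicates. The sex of the mice was not given in the sources used here. No array had the dyes exchanged, and the effects of dye and genotype cannot be told apart. The tables name their intensity columns Test and Cntrl without a dye or genotype. All ratios are therefore log2 of Test over Cntrl, their direction between Met/Met and Val/Val is not settled, and reading the columns in the opposite order turns all signs.

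A miRNA hairpin is cut by Drosha and then Dicer into a short duplex, of which the guide strand is loaded into an Argonaute protein and the passenger strand is mostly degraded. In the let-7 family the 5' arm is the guide. It shares one seed across all members, represses growth-related and pluripotency mRNAs, and is abundant in mature neurons. The 3' arm carries a different seed, so where it is loaded it would pair with other mRNAs. LIN28 binds let-7 precursors and blocks their processing.

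The target sequences of all 7 passenger strands were identical to mature miRNAs of RefSeq (GRCm38.p6). They are printed 5' to 3' with the seed, bases 2 to 8, in capitals, because the seed sets the families and because near-identical targets limit what single probes can tell.

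mmu-let-7a*: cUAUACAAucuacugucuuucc
mmu-let-7b*: cUAUACAAccuacugccuuccc
mmu-let-7f*: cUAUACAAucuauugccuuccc
mmu-let-7d*: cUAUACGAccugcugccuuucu
mmu-let-7c-1*: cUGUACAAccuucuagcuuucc
mmu-let-7i*: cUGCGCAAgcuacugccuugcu
mmu-let-7g*: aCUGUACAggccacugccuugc
mmu-let-7d (guide, for comparison): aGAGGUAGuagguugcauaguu

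The 7 strands held 5 seeds. The seed of let-7a*, let-7b* and let-7f* was shared by these 3 and by no other miRNA on the array, and each of the other 4 strands had a seed of its own there. All were 22 bases long, with 8 (let-7a*) to 13 (let-7g* and let-7i*) G or C bases. Let-7b* and let-7f* were the closest pair, differing at 2 of 22 positions. Let-7a* differed from each of them at 3 positions, and let-7d* from let-7b* at 4. Outside the group the nearest target lay at an edit distance of 7 (miR-505, to let-7c-1* and let-7d*), and the let-7 guide strands at 11 or more. Binding of one strand to the probe of another was not tested.

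The strands come from hairpins at several loci (GRCm38.p6). Mature let-7d* lies at chr13:48536024-48536045, let-7f* at chr13:48537833-48537854 and let-7a* at chr13:48538188-48538209, all on the minus strand. The gaps between these 3 hairpins are 1714 and 261 bases. Let-7b* lies at chr15:85707379-85707400 on the plus strand, 621 bases from the hairpin of let-7c-2. The 3' arm of let-7c-2, at chr15:85706664-85706685, has the same 22 bases as let-7a*, so the let-7a* probe cannot tell these 2 loci apart. Both chromosome 15 hairpins lie within the span of the lncRNA gene Lncppara. Let-7g* lies at chr9:106178902-106178923 within the span of the protein-coding gene Wdr82. Let-7i* lies at chr10:122985642-122985663 and let-7c-1* at chr16:77599717-77599738, in no other annotated gene of the table used.

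Signal over background differed widely among the strands. The level of each was set against the 95th percentile of 136 mismatch control spots, which ran from 77.8 to 209 intensity units in Test and from 379 to 464 in Cntrl over the arrays. On 3 or more arrays, 318 of 569 miRNAs exceeded that percentile in Test or Cntrl, and so did 5 of the 7 passenger strands. The brain miRNAs miR-124, miR-9, miR-128, miR-132, miR-137 and miR-138 lay above it in all 10 columns, at 12.3-fold or more, so brain markers were present. No marker of hippocampus alone was examined. Heart miR-208a and miR-208b lay above it in 0 of 10 columns. Liver miR-122 lay near it, at 0.75 to 1.24 times its value. Striated muscle miR-1 and miR-133a lay above it in 8 of 10 columns each, at up to 7.81-fold and 1.28-fold. Islet miR-375 lay above it in 10 of 10, at up to 4.76-fold. Red blood cell miR-451 was bright, at 6.99 to 57.9-fold, and its part in the values of the passenger strands was not tested.

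Let-7d*, from the hairpin at one end of the chromosome 13 cluster, was the one strand well above the controls. Its Test intensity was 1864, 1311, 1065, 1339 and 666 on replicates 1 to 5, and its Cntrl intensity was 1768, 1528, 1910.1, 1434 and 1152. It stood 6.29 to 14.9 times above the mismatch percentile in Test and 2.48 to 4.79 times in Cntrl, so it was above in all 10 columns.

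Let-7b* and let-7f* were also above the mismatch percentile in all 10 columns, but by less. Let-7b* read 305, 554, 160.0, 157 and 306 in Test and 514, 819, 499, 506 and 739.8 in Cntrl. Let-7f* read 235, 441, 130.0, 102 and 236 in Test and 459, 697, 476, 455 and 650.2 in Cntrl. For both, replicates 2 and 5 were the high ones of Cntrl, and replicates 3 and 4 the low ones of Test.

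Let-7a* and let-7g* lay at the edge of detection. Let-7a* read 251, 210.4, 122, 143 and 72.8 in Test, above the mismatch percentile on 4 of 5 arrays, with replicate 5 below it. Its Cntrl intensity was 465, 438, 407, 428 and 473, above on 5 of 5 but by 1.02 to 1.23 times. Let-7g* read 263, 239.8, 196, 136 and 88.6 in Test, above on 5 of 5, and 463, 462, 560.4, 443 and 462 in Cntrl, above on 4 of 5. Both strands thus had a Cntrl level close to that of mismatch spots.

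Let-7i* and let-7c-1* could not be set apart from unspecific binding in most columns. Let-7i* read 162, 145, 119, 81.7 and 57.4 in Test and 384, 382, 431, 378 and 408 in Cntrl, above the mismatch percentile in 1 and 2 arrays. Let-7c-1* read 110.3, 102, 81.7, 72.1 and 58.3 in Test and 344, 362, 358, 379 and 429.6 in Cntrl, and was above it in 0 of 10 columns. Both were nonetheless above the 95th percentile of empty spots, which was the entry rule of the fit, so all 7 strands were tested.

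**Figure D1:**
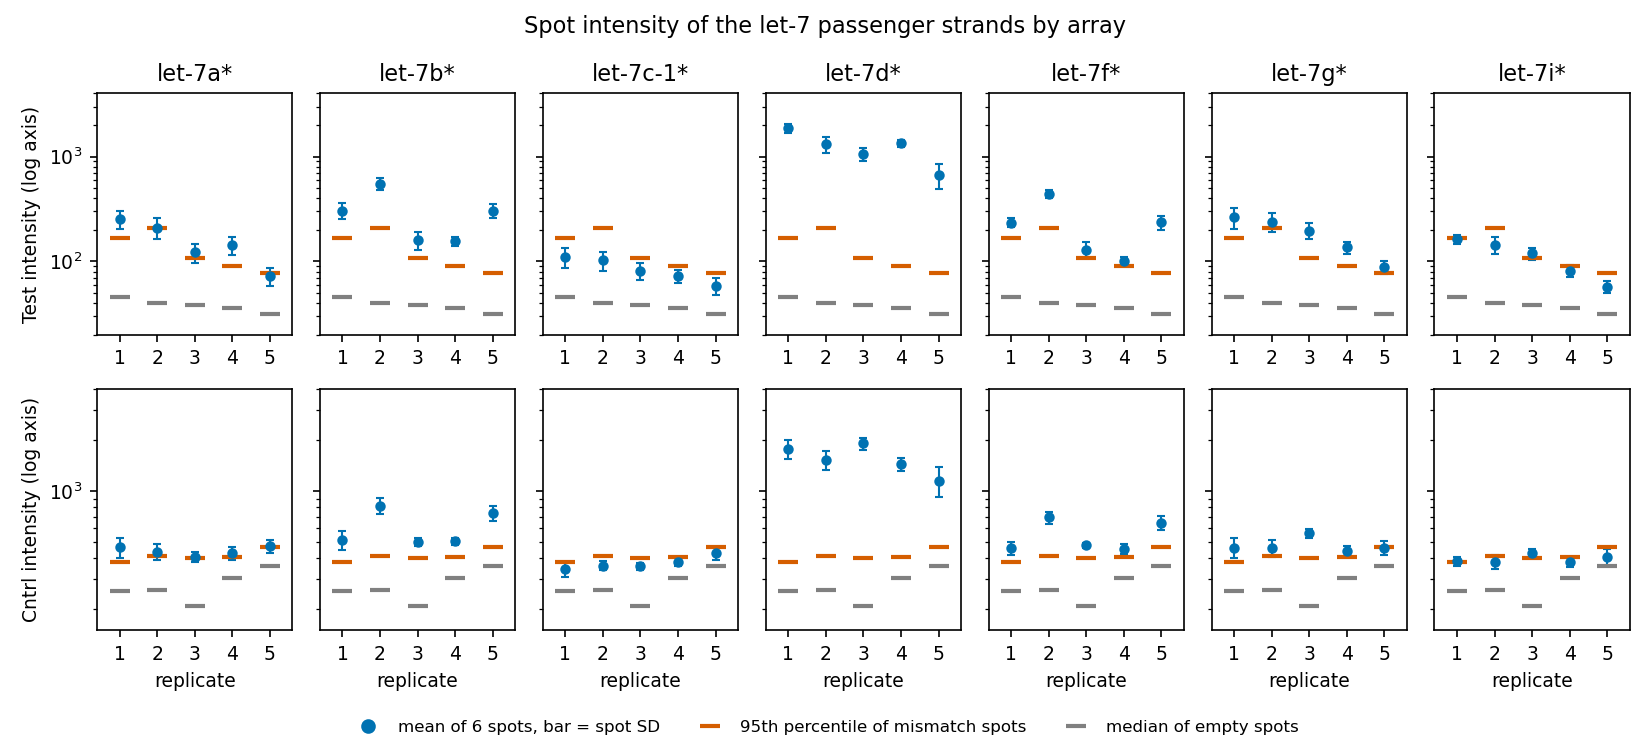
Spot intensity (log axis) of each let-7 passenger strand on replicates 1 to 5, in the Test column (top) and the Cntrl column (bottom). Points are means of 6 spots with the SD between spots, orange dashes the 95th percentile of mismatch spots and grey dashes the median of empty spots; let-7d* stands clear of the orange dashes on all arrays, while let-7c-1* lies under them on all arrays.

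Across arrays, the levels of let-7b* and let-7f* moved in parallel. Array brightness differed, so each intensity was divided by that of the median miRNA of its column. In Test this median lay below the mismatch percentile on replicate 2 (186 against 209) and replicate 5 (63.9 against 77.8). It lay above the percentile on replicates 1, 3 and 4. On this scale let-7b* was 1.79, 2.97, 1.30, 1.46 and 4.80 in Test of replicates 1 to 5, a 3.68-fold range. Let-7f* was 1.38, 2.36, 1.06, 0.95 and 3.69, a 3.89-fold range. Both were highest on replicates 5 and 2 on this scale. Unscaled, Test of replicate 5 was close to that of replicate 1, at 306 against 305 for let-7b* and 236 against 235 for let-7f*. Unscaled Test was highest on replicate 2 for both, so the peak on replicate 5 appears only after scaling, here by a median at background level. Set against the mismatch percentile instead, Test of let-7b* was 1.83, 2.65, 1.50, 1.75 and 3.93. That of let-7f* was 1.41, 2.11, 1.22, 1.14 and 3.03, so replicate 5 was again the highest for both. In Cntrl replicates 2 and 5 were again the highest, with ranges of 1.57-fold and 1.44-fold. No background was subtracted here. The median empty spot read 208 to 361 in Cntrl and 31.4 to 45.7 in Test, so the width of a range cannot be compared between the columns.

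The other 5 strands ranged by 1.26-fold (let-7g*) to 1.78-fold (let-7d*) in Test, against a median of 1.50-fold over all 569 miRNAs. A Test range as wide as that of let-7b* was seen for 2.81% of miRNAs and one as wide as that of let-7f* for 1.41%. In Cntrl these shares were 20.4% and 28.5%. Replicates 2 and 5 were the highest arrays in both columns for 9 of 569 miRNAs. This pattern was picked after the values were seen. Let-7b* and let-7f* are also the closest in sequence, and whether the probes share signal was not tested. Parallel levels were not limited to this pair. On the same scale let-7g* was at 1.55, 1.29, 1.60, 1.27 and 1.39 in Test and let-7i* at 0.95, 0.78, 0.97, 0.76 and 0.90. Let-7f* and let-7a* come from neighbouring hairpins 261 bases apart, and let-7a* was at 1.48, 1.13, 0.99, 1.33 and 1.14 in Test. On replicate 5 let-7a* lay at 0.94 times the mismatch percentile in Test. That value comes from background signal and cannot show whether the 2 neighbours differ.

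**Figure D2:**
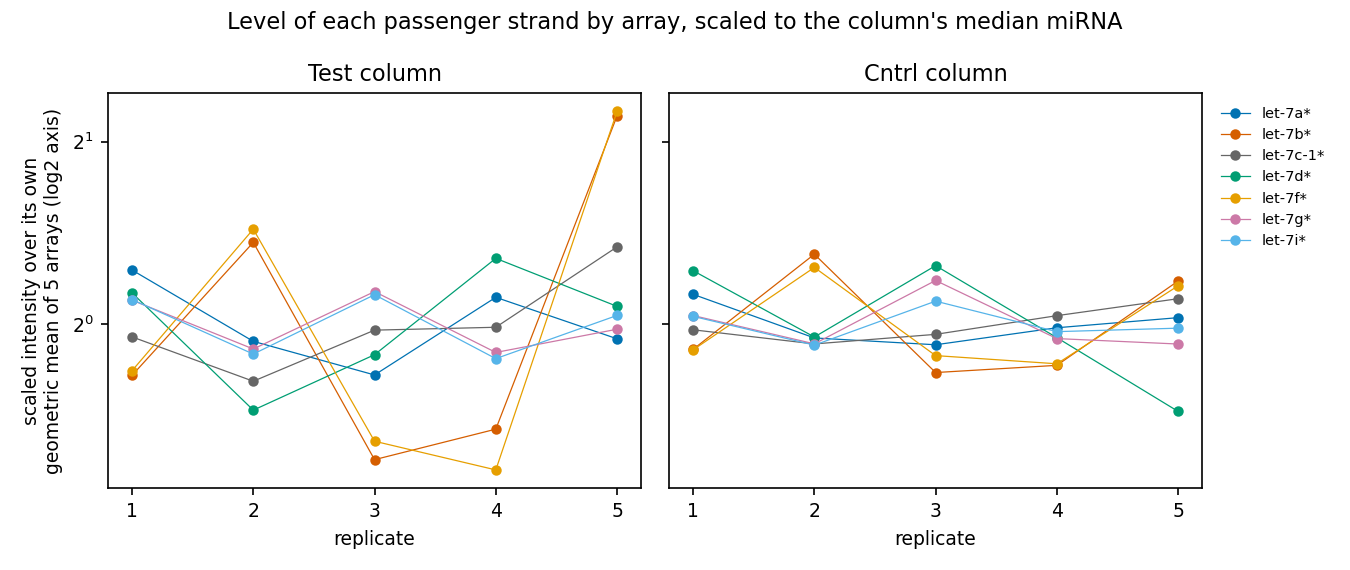
Intensity of each let-7 passenger strand divided by the median miRNA of its column, over its own geometric mean of the 5 arrays (log2 axis), for Test (left) and Cntrl (right). Thin lines join the points of one strand and imply no order of the replicates. On this scale let-7b* and let-7f* rise together on replicates 2 and 5, with ranges of 3.68-fold and 3.89-fold in Test. The Test median used as divisor lies below the mismatch percentile on these 2 arrays.

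For the ratios of the columns, intensities were background-corrected, normalised by loess within each array and averaged over 6 spots on the log2 scale. In these values all 7 strands had a positive mean, at a median of 0.15 over the 7, and so did the 6 of the shorter list, at a median of 0.17; the sign turned for 7 of 7 with no normalization and for let-7c-1* with centring on the median alone. Positive means made up 51.6% of the 568 miRNAs tested, whose median was 0.0029. On all 5 arrays 2 of the 7 strands were positive, against 8.63% of all miRNAs. In the loess values none of the 7 passed an adjusted p of 0.05 in limma, and neither did any other miRNA (0 of 568, or 0%), while 110 of 568 had an unadjusted p below 0.05. The count over all miRNAs was 248 with median centring, 442 with no normalization and 5 without replicate 3. Since the members were chosen by this contrast, nothing follows from these shares about them.

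Let-7d* had the highest mean. Its log2 ratio was 0.41, 0.08, −0.10, 0.42 and 0.64 on replicates 1 to 5, with a mean of 0.29 ± 0.29 (SD, n = 5 arrays), or 1.22-fold. Replicates 1, 4 and 5 were high and replicate 3 was negative. The SD between arrays was 3.03 times the pooled SD of 0.10 between spots of an array, so for let-7d* the spread lay between arrays, not between spots.

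Let-7g* and let-7a* were the strands positive on 5 of 5 arrays. Let-7g* was at 0.29, 0.26, 0.00025, 0.18 and 0.35, a mean of 0.22 ± 0.13, and replicate 3 was practically 0. Let-7a* was at 0.23, 0.23, 0.12, 0.35 and 0.05, a mean of 0.20 ± 0.12, with replicate 5 the lowest. The pooled SD between single spots of an array was 0.15 for let-7g* and 0.17 for let-7a*, and each array value is a mean of 6 spots.

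Let-7i* was at 0.16, 0.16, −0.02, 0.18 and 0.27, a mean of 0.15 ± 0.11, from signal near the mismatch spots. Its profile over the arrays was the closest to that of let-7g*, with a root mean square difference of 0.08 between their ratios. That was the smallest of the 21 pairs of strands, although the 2 targets have 4 of 22 positions in common when aligned from their first base. With gaps allowed their edit distance is 6.

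Let-7b* and let-7f* were positive on 3 of 5 arrays. Let-7b* was at 0.24, 0.04, −0.01, −0.06 and 0.51, a mean of 0.14 ± 0.24. Let-7f* was at 0.18, 0.06, −0.15, −0.22 and 0.45, a mean of 0.06 ± 0.27. Replicate 5 was the highest for both, and without it their means were 0.05 and −0.03. The root mean square difference between the 2 profiles was 0.10. Let-7c-1*, at background, was at −0.02, −0.09, −0.02, 0.05 and 0.13, a mean of 0.01 ± 0.08 with 2 positive arrays.

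**Figure D3:**
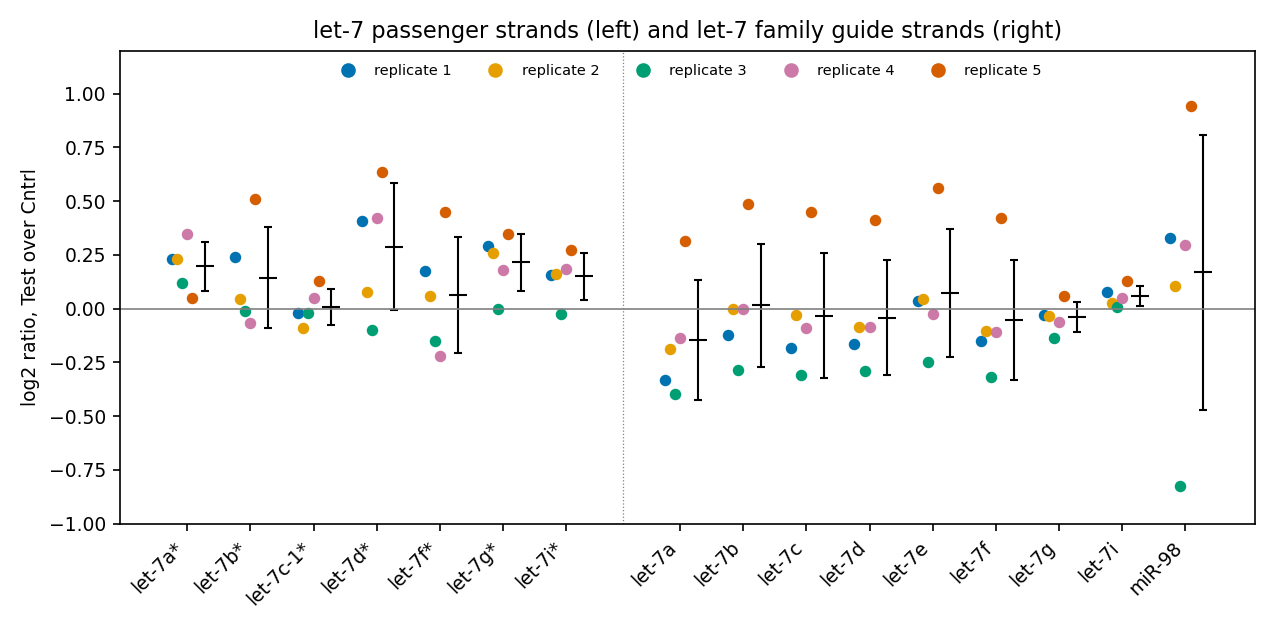
Log2 ratio of Test over Cntrl on each array (coloured points) with the mean and SD over 5 arrays (black) for the 7 let-7 passenger strands (left) and the 9 guide strands of the family (right). All 7 passenger means lie above 0 after loess (6 of 7 with median centring and 0 of 7 without normalization), from 0.01 for let-7c-1* to 0.29 for let-7d*, and the guide means lie on both sides of 0 after loess, with a median of 0.78 with median centring.

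The 3 strands of the chromosome 13 cluster had the following values on the arrays where they lay farthest apart. On replicate 5, let-7d* was at 0.64 and let-7f* at 0.45 while let-7a* was at 0.05. On replicate 4, let-7d* was at 0.42 and let-7a* at 0.35 while let-7f* was at −0.22. On replicate 5 let-7a* was at 0.94 times the mismatch percentile in Test and 1.02 times in Cntrl. On replicate 4 let-7f* was at 1.14 and 1.11 times, so both values come from signal near background. Gaps to them cannot show different profiles, and whether the strands differ was not tested. Let-7d* was at 8.55 and 2.48 times on replicate 5 and at 14.9 and 3.50 times on replicate 4. Let-7f* on replicate 5 was at 3.03 and 1.40 times, and let-7a* on replicate 4 at 1.59 and 1.05 times. The let-7a* probe also reads the identical 3' arm from chromosome 15, so its value is not that of the chromosome 13 hairpin alone.

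The guide strands gave a lower and more mixed picture in the same contrast. Of the 9 guide strands of the family (let-7a to let-7i as named on the array, and miR-98), 4 had positive and 5 negative means, with a median of −0.03. Several guide targets differ at few positions, and binding of one guide to the probe of another was not tested, so these are not separate readings for certain. They were bright, at mean intensities from 19538 to 43034, and with centring on the median alone their median was 0.78, so their direction depended on the normalization. By array, the guide medians were −0.12, −0.03, −0.29, −0.06 and 0.42 on replicates 1 to 5 and the passenger medians were 0.23, 0.08, −0.02, 0.18 and 0.35. Replicate 3 was the lowest and replicate 5 the highest array for both arms.

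Each passenger strand was then set against the guide of the same name on the same array, as the difference of the log2 ratios (passenger minus guide). All 7 mean differences were positive after loess, with a median of 0.13. This difference was not computed for the other passenger strands of the array, so there is no share to set the 7 against. All 7 were negative with median centring or with no normalization, at −0.19 to −0.92 and a median of −0.63. Median centring takes the same amount from all probes of an array, which cancels in the difference, so both settings give the same reading. The order of the arms in this contrast therefore rests on the correction for intensity, and the values that follow hold for loess alone. In the deposited values 7 of 7 were positive, at a median of 0.20. Without replicate 3, that of let-7c-1* was negative, at −0.02. For let-7g the difference was 0.32, 0.29, 0.13, 0.24 and 0.29, a mean of 0.26 ± 0.07 (SD, n = 5) and positive on 5 of 5 arrays. For let-7d it was 0.57, 0.16, 0.19, 0.50 and 0.22, a mean of 0.33 ± 0.19, also positive on 5 of 5. For let-7a it was 0.56, 0.42, 0.52, 0.48 and −0.27, so replicate 5 alone went the other way, and the mean was 0.34 ± 0.35.

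The differences of let-7b, let-7f, let-7i and let-7c were smaller. That of let-7b was 0.13 ± 0.18 and that of let-7f 0.11 ± 0.17, each positive on 4 of 5 arrays. That of let-7i was 0.09 ± 0.07, positive on 4 of 5. That of let-7c-1* against let-7c was 0.04 ± 0.24, positive on 3 of 5. Some of these pairs are not of 1 hairpin: the guides let-7c and let-7f each match 2 hairpins, let-7f on chromosomes 13 and X, and the let-7a* target also comes from the hairpin of let-7c-2, whose guide is let-7c. These differences rest on the contrast by which the strands were chosen and were not tested.

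**Figure D4:**
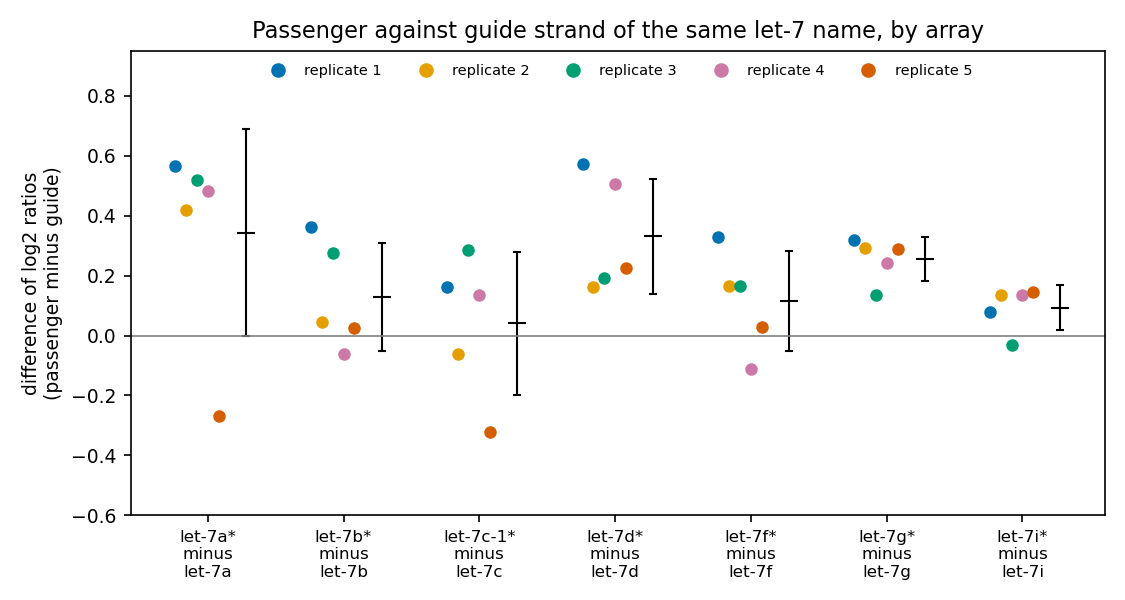
Difference of log2 ratios, passenger minus guide strand of the same let-7 name, on each array (coloured points) with mean and SD over 5 arrays (black). All 7 means lie above 0 after loess and all 7 lie below 0 with median centring or no normalization, which give the same differences (not drawn). The difference was not computed for other passenger strands. After loess let-7g and let-7d are above 0 on all 5 arrays, and let-7a is at −0.27 on replicate 5.

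Of 108 further probes whose names end in a star, 56 had a positive and 52 a negative mean after loess, and their median was 0.0031. That median was −0.084 with median centring and −0.81 with no normalization. Of the 108, 50 lay above the mismatch controls, and single strands went up to 0.46 (miR-29b*). MiR-30a* at 0.39 and miR-30e* at 0.34 also lay above let-7d* at 0.29. These 3 were named after their values were seen, and none passed in limma. This is a description of the 2 lists, and their difference was not tested because the let-7 strands were chosen by these ratios. The miRNAs transcribed with let-7 hairpins in some clusters, miR-99a, miR-99b, miR-100 and the miR-125 arms, numbered 9 probes. Of these, 4 had positive and 5 negative means, with a median of −0.00051 after loess, and none of the 9 passed in limma on those values. Their median was 0.57 with median centring and −0.16 with no normalization. MiR-99b*, a passenger strand of such a cluster with signal near the mismatch spots, was at 0.08 ± 0.06, and miR-125b-5p, the abundant guide of miR-125b, at −0.24 ± 0.22.

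The miRNAs most like the passenger strands were sought among 298 miRNAs above the mismatch controls and outside the let-7 lists. Likeness was the root mean square difference over 5 arrays from the median profile of the 6 listed strands, which was 0.24, 0.12, −0.02, 0.18 and 0.40. The 5 nearest were miR-132, at a difference of 0.06, miR-327 and miR-92b at 0.08 each, and miR-361 and miR-151-5p at 0.09 each. MiR-132, known to be induced by neuronal activity through CREB, was at 0.22, 0.06, −0.05, 0.25 and 0.30. Since the 5 were picked for this profile, their shared shape is no further result.

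Over the 568 miRNAs the ratios of replicates 3 and 5 correlated at r = −0.56 and those of replicates 1 and 3 at −0.30. Replicate 3 correlated at 0.25 with replicate 2 and at 0.17 with replicate 4, and the other 6 pairs of arrays lay between 0.18 and 0.63. These correlations are across miRNAs, which are not independent replicates. The labels give the same dyes on all 5 arrays, so they give no ground to turn a single array. The group was read with a sign turned only to describe how far it rests on replicates 3 and 5. With replicate 3 turned, 7 of 7 means stayed positive, at a median of 0.15. With replicate 5 turned, 4 of 7 were positive, at a median of 0.03. Without replicate 5, 5 of 7 means were positive, at a median of 0.12.

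The authors' processed values gave a second reading of the same arrays. Over 106 bright miRNAs, the deposited values ran at a slope of 0.96 to 1.00 with the log2 Test over Cntrl ratios above. There r was from 0.978 to 0.999 across miRNAs. The passenger strands were not among these bright miRNAs, and over all 568 shared miRNAs r was lower, from 0.773 to 0.926. In the deposited value table the mean was 0.35 ± 0.29 for let-7g*, 0.31 ± 0.31 for let-7d* and 0.26 ± 0.20 for let-7a*. Let-7i* was at 0.26 ± 0.15 and positive on 5 of 5 arrays, while let-7b* was at 0.10 ± 0.27, let-7f* at 0.04 ± 0.35 and let-7c-1* at 0.02 ± 0.14. All 7 deposited means were positive, but let-7g* and let-7a* were each positive on 4 of 5 arrays there, not 5. Let-7d* was positive on 4, let-7f* on 3, and let-7b* and let-7c-1* on 2. On replicate 5, let-7g* was at 0.78 there against 0.35 in the loess values, and that is the array on which its Cntrl intensity lay below the mismatch percentile.

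**Figure D5:**
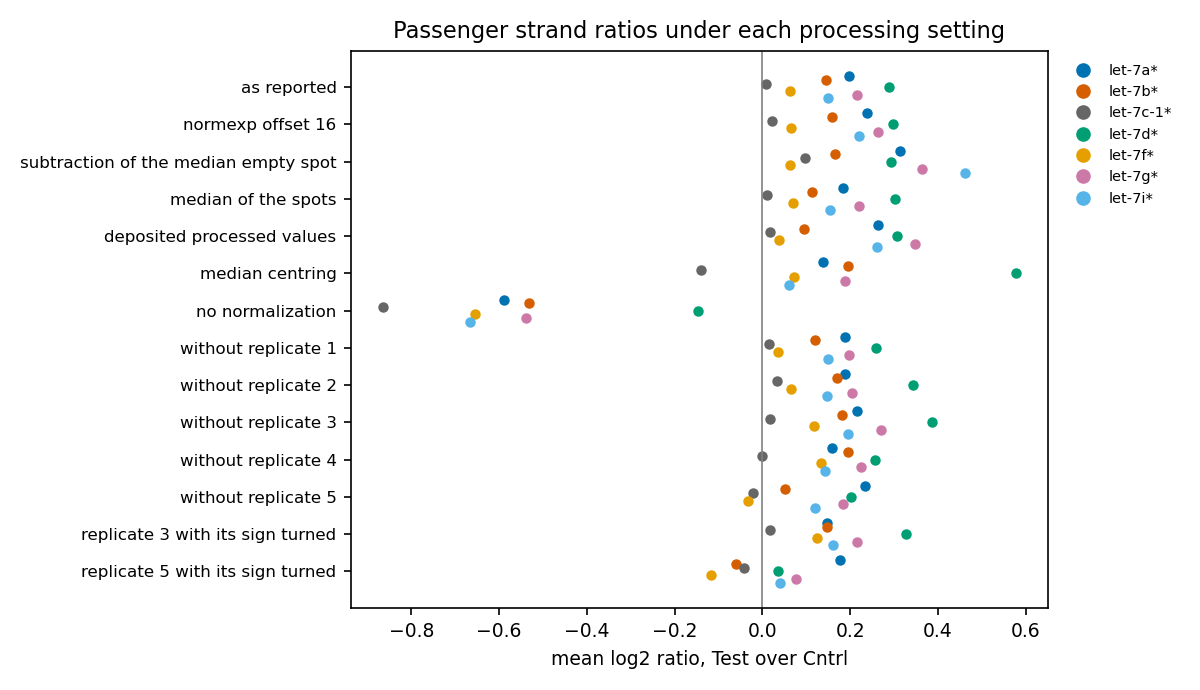
Mean log2 ratio of Test over Cntrl of each let-7 passenger strand (coloured points) under each processing setting, including the authors' deposited values and arrays left out or turned. All 7 means are below 0 with no normalization; let-7c-1* is below 0 with median centring and without replicate 4 or 5, let-7f* without replicate 5, and let-7b*, let-7c-1* and let-7f* with replicate 5 turned.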

How the data were processed

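Hippocampal small RNA of 10 mice was measured on 5 two-colour arrays. The authors deposited foreground and SD intensity per spot on a linear scale without normalization, per the file headers (3968 spots per array, background columns 0 throughout). The deposited value table holds ratios that were found to be log2 Test over Cntrl. Its column medians are −0.04, −0.02, −0.03, −0.03 and −0.05. How the authors centred it, and which genotype Test is, are not known. Scanner software is not given in the sources used here.

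Intensities were corrected by normexp (offset 50), normalised by loess with control spots at weight 0, and averaged over 6 spots. MiRNAs exceeding the 95th percentile of 266 empty spots in Test or Cntrl on 3 or more arrays were tested (568 of 569), with limma 3.58.1 in R 4.3.3, an intercept, eBayes and Benjamini-Hochberg adjustment over 568. Each array is a pair of mice and so already a block. Mismatch controls were 136 spots; 20 brighter mismatch spots matching a spiked sequence were left out. The fit was tested on simulated data. Edit distances were computed with edlib 1.3.9.post1 and figures drawn with matplotlib 3.10.9 in Python 3.11.15. The strands and lists were chosen with earlier results of these data known. Named miRNAs are the strands, the let-7 guides, the co-transcribed miRNAs and the 5 nearest profiles; the number of arrays limits precision.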

Additional observations from a re-analysis of the deposited data

Results flagged for a closer look

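Of 21 series of 5 arrays examined (the ratio and both intensities of each passenger strand), 1 had a single array far from the others. The Cntrl intensity of let-7g* was 560.4 on replicate 3, while the other 4 arrays lay between 443 and 463. Chance marks about 1 in 20 such series, so 1 of 21 is near that share. Replicate 3 is also the array on which the ratio of let-7g* was practically 0.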

How the results depend on the processing

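The median of the let-7 passenger strands was positive in all settings run except no normalization, whereas passenger minus guide turned negative in 7 of 7 pairs with median centring and with no normalization. Both settings give the same reading of that difference, because centring cancels within an array. The passenger median was −0.59 with no normalization, where all miRNAs had a median of −0.77, so it stood 0.18 above them. It was 0.29 with subtraction of the median empty spot. With no normalization 0 of 7 strands had a positive mean. With replicate 5 turned 4 did, and of the 3 strands above the mismatch controls in both columns on all arrays 3 did; these were chosen after seeing the data. Leaving out each array gave passenger medians of 0.12 to 0.19, 5 to 7 positive strands, guide medians of −0.10 to 0.04, and medians of −0.0012 to 0.0093 for other passenger strands and of −0.018 to 0.0084 for co-transcribed miRNAs.

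The count of miRNAs past the threshold was 0 as reported, 2 with offset 16, 2 in the deposited values, 248 with median centring, 442 with no normalization, 1 without the replicate block (columns as separate samples), and 0 to 5 over the arrays left out, with 5 without replicate 3. With median centring the guide median was 0.78, that of co-transcribed miRNAs 0.57 and that of other passenger strands −0.084. With no normalization the last 2 were −0.16 and −0.81. Other passenger strands were at 0.047 with subtraction of empty spots and at −0.012 with the filter on mismatch controls. The cause of these shifts was not tested.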
